A study of Mus musculus with 6 samples.

Results

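Day 1 wounds of mouse skin were compared with intact skin across all measured genes. The comparison rests on 4 of the 6 arrays of the series: the 2 arrays titled as wounds of 1 day and the 2 titled as intact. The mice were BALB/c males (inbred and albino) of 5 to 6 weeks, and no transgene or drug is named in the labels. The wounded group carried 2 full-thickness punch wounds of 4 mm on the shaved back, made down to the fascia. It was sampled 1 day after injury with an 8 mm punch, which also took a rim of neighbouring skin. The intact group was uninjured skin taken with the same 8 mm punch, and the labels do not say whether those mice had been shaved. Replicates are described as biological, without a statement of how many animals or wounds went into each, so the p-values measure only the spread between these arrays. Values are log2 intensities of an Affymetrix mouse gene array, on which a difference of 1 is a 2-fold difference. Arrays are named by the replicate number of the labels, and n is 2 arrays a group throughout. A level on this array depends on the probes of a gene, so levels are compared between arrays and not between genes.

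A skin wound is sensed within minutes by receptors for microbial and damage molecules on resident cells, which switch on NF-kB, STAT and interferon regulatory factors. These drive cytokines, chemokines and adhesion molecules that bring neutrophils and then monocytes out of the blood. Keratinocytes at the wound edge loosen their contacts, change keratins and integrins and prepare to crawl over a provisional matrix, while the hair follicles nearby supply cells to the new epidermis.

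Day 1 wounds had 2927 genes above (14.7%) and 2915 genes below (14.6%) their level in intact skin, out of 19938 tested by limma at an adjusted p under 0.05. In all 29.3% passed, and the counts of each gene list have to be read against these shares. A gene is said to have risen or fallen only where it passed. Both day 1 arrays lay above both intact arrays in 29.0% of all genes and below both in 38.2%, so a lack of overlap is common. At least 2-fold changes were made up of 963 rises (4.83%) and 479 falls (2.40%). Small changes were more often falls than rises: 1773 falls and 1121 rises lay under 1.5-fold. Changes over 8-fold were more often rises, at 121 against 49. The 4985 dimmest genes gave 131 rises and 260 falls, the 4985 brightest 1240 and 926. Replicate arrays differed by a median of 0.10 in day 1 wounds and 0.09 in intact skin on the log2 scale. The median log2 change over all genes was −0.04. With any 1 of the 4 arrays left out, 2669 of the 5842 calls remained in all 4 fits, 54.2% of the rises and 37.2% of the falls. The numbers higher and lower were 1773 and 1376 without intact array 1, 1934 and 1459 without intact array 2, 1871 and 1478 without day 1 array 2 and 2496 and 2071 without day 1 array 1. With standard errors that were not moderated across genes 1243 rose and 1117 fell.

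Markers of skin were high on all 4 arrays, and markers of myeloid cells were higher in the wounds. The keratinocyte markers, among them the basal keratins Krt5 and Krt14, had mean log2 levels of 12.12 and 12.03 in day 1 wounds and 11.73 and 11.78 in intact skin. Dermal fibroblast markers stood at 11.08 and 11.51 in day 1 wounds and 10.42 and 10.54 in intact skin. Neutrophil markers were at 10.42 and 10.88 in day 1 wounds against 6.42 and 6.56 in intact skin, all 8 of them rose, and monocyte and macrophage markers were at 10.61 and 10.69 against 7.94 and 8.42 (6 of 6 rose). Skeletal muscle markers lay at 11.09 and 11.13 against 10.28 and 10.29 (7 of 8 rose), and adipocyte markers at 10.05 and 9.98 against 10.26 and 10.20 (2 of 7 fell, the number lower was 1 without day 1 array 1, 0 without intact array 1 and 1 without intact array 2). The lowest single value of the keratinocyte list on any array was 10.68. In whole skin, more cells of a type and more RNA per cell cannot be told apart, and the part of these markers in the gene lists was not tested.

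**Figure D1:**
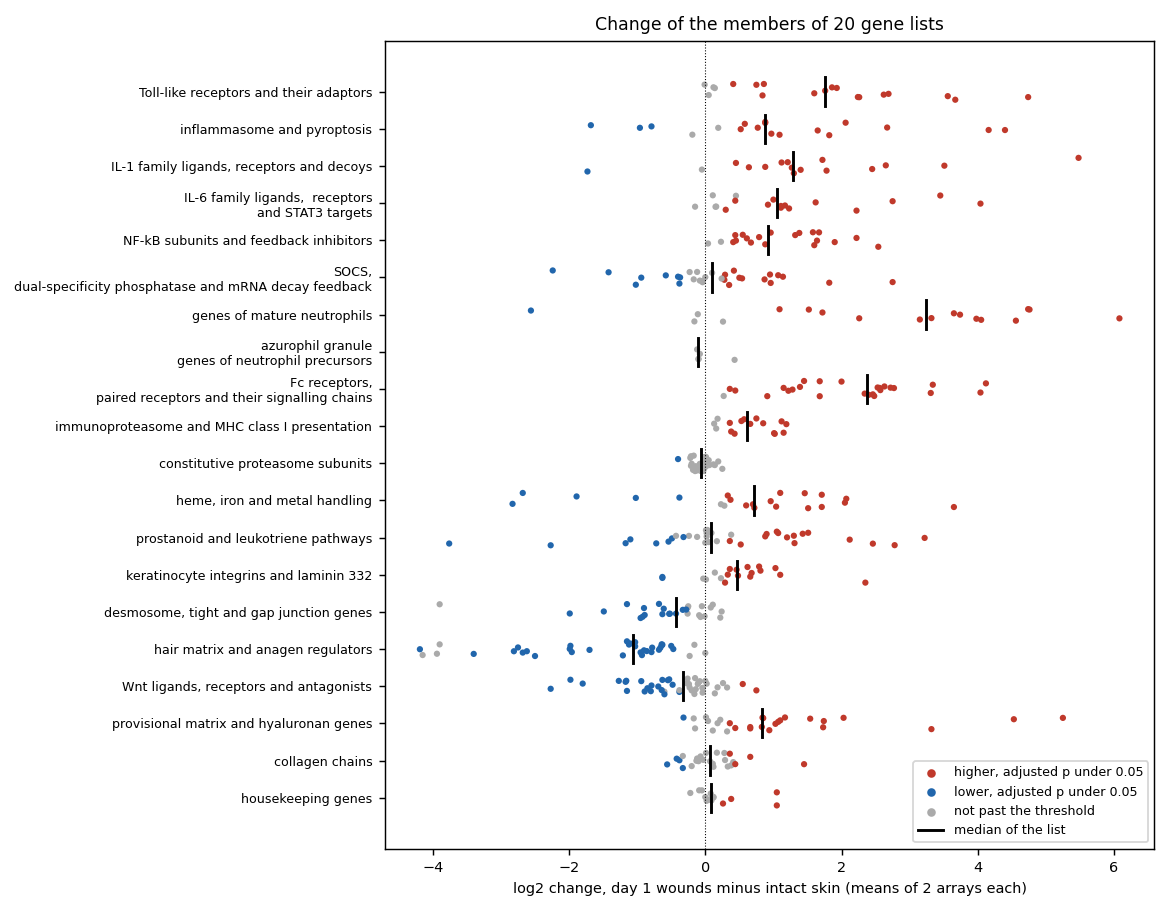
Log2 change from intact skin to day 1 wounds (horizontal axis) of the members of 20 gene lists (rows), with points coloured by call and a black bar at the list median. The bar of the mature neutrophil list sits at 3.23 and that of hair matrix regulators at −1.07, while the constitutive proteasome and collagen lists stay close to 0.

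The first group of genes encodes receptors that sense microbes and damage. Of 19 Toll-like receptors and adaptors 15 rose and none fell, at a median log2 change of 1.76. Tlr13, which senses bacterial ribosomal RNA, was at 10.12 and 10.15 on the day 1 arrays and 5.82 and 7.10 on the intact arrays. Both wound arrays lay far above both intact arrays (12.8-fold, log2 change 3.67, SE 0.37, adjusted p = 9.51e-04). Tlr1, a partner of Tlr2 for lipopeptides, rose 11.8-fold, and the endosomal RNA sensors Tlr8 and Tlr7 rose 6.43-fold and 6.15-fold. Tlr4, the lipopolysaccharide receptor, rose 4.79-fold together with its co-receptor Cd14 (26.6-fold). The adaptors divided: Myd88, used by nearly all of these receptors, stood 3.04-fold higher, whereas Ticam1, the adaptor of Tlr3, had a log2 change of 0.05 (adjusted p = 0.732) and Traf6 one of 0.12 (adjusted p = 0.337).

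Sensors outside the Toll family moved the same way in 19 of 22 cases, with a median of 2.05 and none called lower. Trem1, an amplifying receptor of neutrophils and monocytes, rose 37.3-fold and its relative Trem3 13.8-fold. The scavenger receptor Msr1 rose 10.3-fold and the beta-glucan receptor Clec7a 9.88-fold. Among sensors of nucleic acids in the cytosol, Zbp1 rose 6.87-fold, Dhx58 5.54-fold and the adaptor Sting1 4.04-fold, while Mavs, the adaptor of the RNA helicases, was at 0.03 (adjusted p = 0.793). Ager, the receptor for advanced glycation products, was at −0.08 (adjusted p = 0.601).

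Inflammasomes are protein platforms on which a sensor activates a caspase that matures IL-1 and cuts gasdermins, the pore formers of pyroptosis. Several sensors rose and 2 shared parts, Casp1 and Pycard, did not pass: of 18 members 13 rose and 3 fell. Nlrp3, the best known sensor, had values of 8.68 and 9.04 in day 1 wounds and 4.41 and 4.50 in intact skin. The 2 groups were far apart (21.2-fold, log2 change 4.40, SE 0.16, adjusted p = 3.06e-05). Casp4, the caspase that detects lipopolysaccharide inside cells, rose 6.34-fold, and the sensors Mefv, Naip2 and Naip5 rose 4.16-fold, 3.53-fold and 3.14-fold. Casp1, the caspase that matures IL-1 beta, was at 8.74 and 8.33 against 8.26 and 8.43 (log2 change 0.19, adjusted p = 0.371), and the adaptor Pycard at 8.41 and 8.25 against 8.50 and 8.53 (−0.19, adjusted p = 0.144). Wound and intact values overlapped for Casp1 and lay close together for Pycard. The gasdermins went in opposite directions. Gsdmc was at 9.22 and 9.26 on the wound arrays and 4.66 and 5.51 on the intact arrays, 17.8-fold higher, and Gsdmd was 2.14-fold higher. Gsdma, the gasdermin of the upper epidermis and hair follicle, was at 9.64 and 9.24 against 11.07 and 11.18, 3.22-fold lower, its copy Gsdma2 was 1.95-fold lower, and the epidermal sensor Nlrp10 was 1.73-fold lower. Members of the Gsdma and Gsdmc clusters are near-identical copies whose probes may share signal. Gsdma2 lost the call with any array but day 1 array 1 left out (adjusted p up to 0.0997).

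The IL-1 family holds ligands that act as alarms and antagonists that limit them. Of 16 members 14 rose and 1 fell, at a median of 1.28. Il33, an alarmin stored in nuclei of barrier cells, was at 10.34 and 10.83 in day 1 wounds and 6.97 and 7.19 in intact skin. Both wound arrays stood above both intact arrays (11.4-fold, log2 change 3.51, SE 0.18, adjusted p = 8.74e-05). The epidermal IL-36 ligands Il1f9, Il1f6 and Il1f8 rose 6.3-fold, 2.65-fold and 2.41-fold, Il1a rose 3.43-fold and Il18 1.84-fold. The brakes rose as well: the receptor antagonist Il1rn 2.32-fold, the decoy receptor Il1r2 3.29-fold and the IL-18 binding protein Il18bp 1.56-fold. The IL-18 receptor chain Il18rap rose 5.46-fold. Il1f10, which encodes IL-38, a ligand of resting epidermis counted among the antagonists, was the member that fell, from 7.93 and 7.99 to 6.12 and 6.34, 3.32-fold lower. The inhibitory receptor Sigirr was at −0.05 (adjusted p = 0.681).

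**Figure D2:**
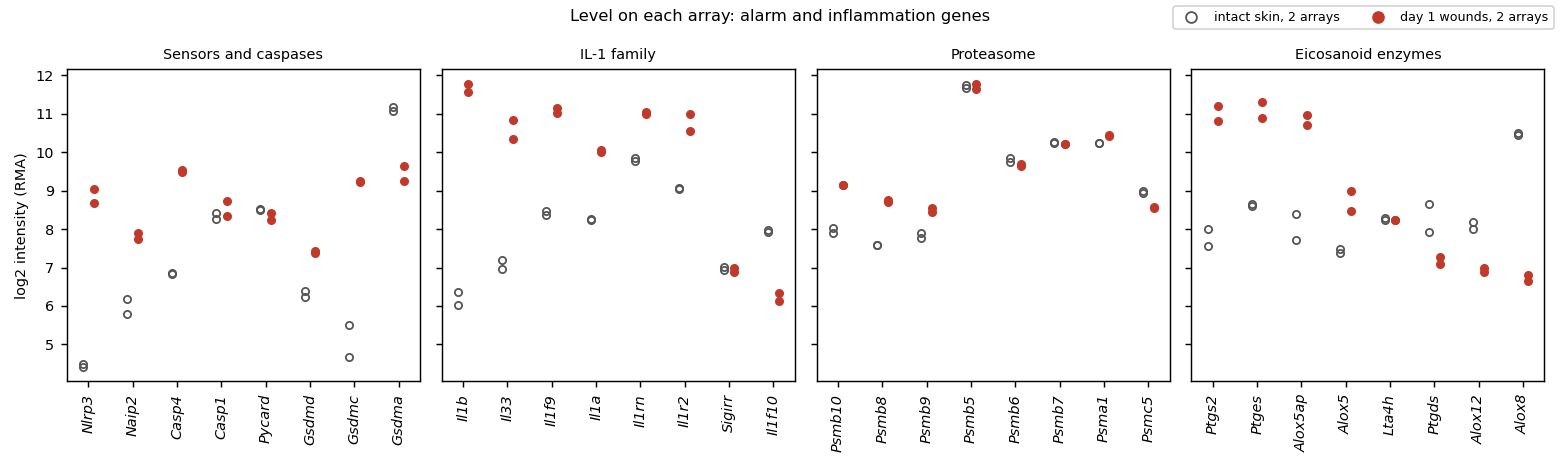
Log2 intensity (vertical axis) on each of the 2 intact arrays (open circles) and the 2 day 1 arrays (filled circles) for genes of 4 alarm and inflammation groups. Nlrp3, Il1b, Psmb8 and Ptgs2 sit higher in the wounds, Casp1, Psmb5 and Lta4h lie together in both groups, and Gsdma, Il1f10 and Alox8 sit lower.

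In the IL-6 family, whose members signal through the shared chain Il6st and STAT3, Il6 was at 8.21 and 8.15 in day 1 wounds and 3.82 and 4.46 in intact skin. The wound arrays were far above the intact arrays, whose signals were dim (16.4-fold, log2 change 4.04, SE 0.35, adjusted p = 5.53e-04). Osm, made by neutrophils and macrophages, rose 10.9-fold and its receptor chain Osmr, which keratinocytes and fibroblasts carry, 3.07-fold. The receptor chains Il6ra, Lifr and Il6st rose 2-fold, 2.16-fold and 2.17-fold, the kinase Jak2 2.25-fold and the feedback inhibitor Socs3 6.73-fold. Among other ligands, Clcf1 passed the threshold (change not given here). Il11 was at a log2 change of 0.15, Il27 at 0.16, Lif at 0.45 and Ctf1 at −0.15, and these did not pass (adjusted p = 0.358, 0.285, 0.0689 and 0.244). In all 13 of 18 members rose and none fell.

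Of 39 members of the TNF ligand and receptor families 17 rose and 2 fell (the number lower was 0 without day 1 array 1, 1 without day 1 array 2, 0 without intact array 1 and 1 without intact array 2). Tnfrsf1b, the TNF receptor of leukocytes, rose 6.13-fold, Tnf itself 4.52-fold, the death receptor Fas 3.71-fold and the ligand Tnfsf18 2.92-fold. Ligands of activated T cells did not pass, with log2 changes of 0.06 for Cd40lg, 0.08 for Fasl and −0.21 for Cd70 (adjusted p = 0.717, 0.465 and 0.219). Tnfrsf13c, the receptor for BAFF on B cells, and the death receptor Tnfrsf25 fell 1.29-fold and 1.25-fold. Tnfrsf13c did not pass with day 1 array 1 or intact array 1 left out (adjusted p up to 0.0864). Tnfrsf25 no longer passed with any 1 of the 4 arrays left out (adjusted p up to 0.141).

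NF-kB is held inactive by inhibitors that its own activity induces. Of 20 subunits, inhibitors and feedback genes 18 rose and none fell, with a median of 0.92, and 15 remained called with any 1 of the 4 arrays left out. The inhibitors Nfkbie, Nfkbiz, Nfkbid and Nfkbia rose 3.18-fold, 3.12-fold, 3.03-fold and 2.61-fold. The subunits Nfkb2, Rel, Relb and Rela rose 1.94-fold, 1.72-fold, 1.59-fold and 1.47-fold. Tnip3, an inhibitor of the ubiquitin signals upstream, was at 8.14 and 6.91 in day 1 wounds and 4.67 and 5.31 in intact skin, without overlap (5.8-fold, log2 change 2.54, SE 0.40, adjusted p = 0.00475). The kinase chain Ikbkb was at 0.23 and the scaffold Ikbkg at 0.04 (adjusted p = 0.0794 and 0.711).

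Promoters of this list are shown as an example, because it was made of NF-kB subunits and feedback genes. RefSeq promoters, taken from 250 bases before to 50 after a start on assembly GRCm38.p6, were found for 17 of its members, and 10 of these (58.8%) held the kB consensus motif on either strand. Over all genes measured 1713 of 15614 genes with a promoter did. The share varied between other lists. It was 0 of 14 in the IL-1 family, where 14 of 16 members rose. In the tricarboxylic acid cycle, where 3 of 23 rose, it was 7 of 21. Whether the motif goes with the rises was not tested. The lines give Nfkbia at chr12:55492598-55492897 (minus strand), Nfkbie at chr17:45555450-45555749 (plus strand) and Tnip3 at chr6:65590148-65590447 (plus strand), 5′ to 3′ in the direction of the gene, with each match in capitals.
Nfkbia: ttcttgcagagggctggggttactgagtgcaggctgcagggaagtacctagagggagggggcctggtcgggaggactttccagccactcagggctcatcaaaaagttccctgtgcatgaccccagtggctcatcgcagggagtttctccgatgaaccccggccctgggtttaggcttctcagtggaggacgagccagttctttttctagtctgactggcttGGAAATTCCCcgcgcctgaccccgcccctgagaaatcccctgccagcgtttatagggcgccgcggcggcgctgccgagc
Nfkbie: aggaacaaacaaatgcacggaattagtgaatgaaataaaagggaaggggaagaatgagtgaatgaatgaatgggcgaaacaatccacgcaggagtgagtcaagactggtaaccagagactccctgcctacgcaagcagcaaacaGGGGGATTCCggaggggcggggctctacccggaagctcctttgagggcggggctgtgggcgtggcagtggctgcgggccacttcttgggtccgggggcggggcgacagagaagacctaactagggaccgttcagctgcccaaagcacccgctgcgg
Tnip3: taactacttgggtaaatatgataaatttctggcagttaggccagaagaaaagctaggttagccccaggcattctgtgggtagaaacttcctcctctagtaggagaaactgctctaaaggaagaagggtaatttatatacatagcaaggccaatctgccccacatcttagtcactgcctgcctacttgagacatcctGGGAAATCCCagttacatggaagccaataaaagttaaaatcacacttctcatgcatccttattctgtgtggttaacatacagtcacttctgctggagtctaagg
A match is a stretch of letters and was not tested as a binding site.

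Feedback genes of other pathways were divided. Among 31 SOCS, dual-specificity phosphatase and mRNA decay genes 14 rose and 8 fell (the number higher was 8 without day 1 array 1, 7 without day 1 array 2, 8 without intact array 1 and 9 without intact array 2, and the number lower was 5 without day 1 array 1, 3 without day 1 array 2, 3 without intact array 1 and 3 without intact array 2). Socs3 rose 6.73-fold, Socs2 2.2-fold and the RNase Zc3h12a, which degrades cytokine mRNA, 2.1-fold. Dusp1, the phosphatase that switches off stress kinases, rose 3.53-fold from 9.73 and 9.90 to 11.60 and 11.67. Other phosphatases of the family fell: Dusp14 was at 10.12 and 9.53 in wounds against 12.07 and 12.05 in intact skin, 4.71-fold lower, and Dusp10, Dusp8, Dusp2 and Dusp4 were 2.69-fold, 2.03-fold, 1.92-fold and 1.49-fold lower. Wound and intact values of Dusp14 did not overlap. Dusp2 and Dusp4 lost the call with any array but day 1 array 1 left out (adjusted p up to 0.11).

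Transcription factors of the IRF and STAT families rose in 12 of 14 cases, at a median of 1.14. Irf7, the amplifier of interferon genes, was 6.57-fold higher, Stat2 3.75-fold, Irf1 2.89-fold and the myeloid factor Irf8 2.69-fold. Irf3, which is switched on by phosphorylation, had a log2 change of −0.16 and the lymphoid factor Irf4 one of −0.25 (adjusted p = 0.14 and 0.135). Among AP-1, C/EBP and small Maf factors 10 of 20 rose, led by Atf3 (3.42-fold), Fos (3.33-fold), Cebpd (2.29-fold) and Fosl1 (2.21-fold), while Jund fell 1.39-fold. Jun was at −0.15 and the myeloid precursor factor Cebpe at −0.11 (adjusted p = 0.264 and 0.412). Jund did not pass with any array but intact array 1 left out (adjusted p up to 0.0834).

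Interferon-response genes stood among the rises ranked 11 to 40. Rsad2, an antiviral enzyme, was at 11.17 and 11.04 in wounds and 6.19 and 6.29 in intact skin (29.1-fold), and Ifit1, which binds foreign RNA, was at 10.69 and 10.38 and 6.30 and 6.11 (20.1-fold). The groups did not overlap in either. Ifi209, Ifi214 and Trim30d, of mouse families with near-identical copies, were 28.3-fold, 19-fold and 18.4-fold higher. The promoters of Rsad2 and Ifit1 are shown because both carry the interferon-stimulated response element, searched on both strands as GAAA, any 2 bases and GAAA. It was found in 9.32% of the promoters of genes at least 2-fold higher, in 1.94% of those of genes at least 2-fold lower and in 3.27% over all genes measured. The lines give Rsad2 at chr12:26456403-26456702 (minus strand) and Ifit1 at chr19:34640639-34640938 (plus strand) from the RefSeq table on GRCm38.p6, with matches in capitals.
Rsad2: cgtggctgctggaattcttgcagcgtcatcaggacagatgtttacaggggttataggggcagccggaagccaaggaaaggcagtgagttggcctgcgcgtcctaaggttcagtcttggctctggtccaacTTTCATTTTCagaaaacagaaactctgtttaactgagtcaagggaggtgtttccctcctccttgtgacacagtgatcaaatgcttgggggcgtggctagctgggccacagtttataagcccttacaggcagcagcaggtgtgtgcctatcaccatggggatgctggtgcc
Ifit1: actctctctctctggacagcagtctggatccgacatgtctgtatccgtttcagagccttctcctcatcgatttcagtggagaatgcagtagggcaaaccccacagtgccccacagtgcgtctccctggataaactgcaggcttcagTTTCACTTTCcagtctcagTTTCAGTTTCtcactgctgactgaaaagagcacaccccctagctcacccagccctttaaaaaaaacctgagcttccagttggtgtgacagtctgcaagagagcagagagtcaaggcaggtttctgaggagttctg
The kB consensus was in 13.8% of promoters of genes at least 2-fold higher, in 51 of 464 promoters of genes at least 2-fold lower and in 9.55% over all, so both sets lay above that share. The AP-1 motif TGANTCA was in 12.4%, 9.27% and 6.90%, respectively. These shares describe letters in a window and carry no test.

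Adhesion molecules that carry leukocytes out of vessels rose in 16 of 24 cases. On the leukocyte side, the integrin chains Itgam, Itgb2 and Itga4 rose 8.88-fold, 6.11-fold and 3.07-fold and the selectin ligand Selplg 6.54-fold. On the endothelial side, Icam1, Vcam1 and Sele rose 2.8-fold, 2.23-fold and 1.88-fold, and Icam2, the constitutive relative, was at 0.29 (adjusted p = 0.0677). Cd99l2, which helps leukocytes through the vessel wall, fell 1.92-fold from 10.09 and 10.13 to 9.25 and 9.09.

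The chemokine receptors with the largest rises were those of neutrophils and monocytes. Cxcr2, Ccr1, Ccrl2 and Ccr2 rose 26.8-fold, 25.6-fold, 22.6-fold and 8.66-fold. Among receptors carried by T cell subsets, Ccr6, Ccr4, Cxcr3 and Ccr10 had log2 changes between −0.09 and 0.05, and none of these passed. Ccr7, Ccr9 and Cxcr6, which lymphocytes also carry, did pass the threshold (changes not given here). They did not remain called in every fit with an array left out. In all 12 of 22 rose (the number higher was 7 without day 1 array 2, 5 without intact array 1 and 6 without intact array 2). In a list of 17 tissue chemokines, which mixes homeostatic and inducible members, 7 rose, led by Ccl5 (9.65-fold), Ccl20 (7.49-fold) and the eosinophil attractant Ccl11 (3.53-fold). Cxcl12 fell 1.19-fold, and Cxcl14, abundant in resting epidermis, was at −0.14 (adjusted p = 0.597). Cxcl12 no longer passed with any 1 of the 4 arrays left out (adjusted p up to 0.153).

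Most genes of mature neutrophils rose, and the granule genes of their precursors did not pass. The precursor genes were dim, at mean log2 levels of 5.65 and 5.79 in wounds and 5.78 and 5.65 in intact skin. Dim genes were seldom called: 131 of the 4985 dimmest, with mean levels up to 5.84, rose. A difference in cell maturity was not tested. Among 18 genes of mature neutrophils 14 rose, with a median of 3.23, and all 14 rises remained with any 1 array left out. Csf3r, the receptor of the neutrophil growth factor G-CSF, was at 10.10 and 10.54 in wounds and 6.09 and 6.44 in intact skin. Its groups were far apart (16.6-fold, log2 change 4.05, SE 0.19, adjusted p = 6.80e-05). Stfa2 and Stfa3, stefins of myeloid cells with near-identical copies, rose 15.8-fold and 13.4-fold. None of the 5 azurophil granule genes, which are transcribed in bone marrow precursors, was called by limma, and 0 had an unadjusted p under 0.05: Mpo was at 0.43, Elane at −0.08, Prtn3 at −0.10 and Ctsg at −0.12. Without day 1 array 1, 1 of them was called higher. Among secondary granule genes, Ngp rose 4.81-fold, but Ltf was at 0.26 and Camp at −0.16 (adjusted p = 0.0698 and 0.232). Padi4, the enzyme that citrullinates histones in neutrophils, went against the list, from 9.40 and 9.51 to 7.20 and 6.60 (5.88-fold lower). Its relatives Padi3 and Padi1, which act on proteins of the hair follicle and epidermis, were 18.3-fold and 10.1-fold lower. Padi4 and Padi1 lost the call with any array but day 1 array 1 left out (adjusted p up to 0.103). Padi3 did not pass with any 1 of the 4 arrays left out (adjusted p up to 0.134).

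The phagocyte oxidase makes superoxide from a membrane core and cytosolic subunits. The subunits measured here rose, Cybb 7.75-fold, Ncf4 6.61-fold, Cyba 3.97-fold and Ncf1 3.54-fold, with the GTPase Rac2 4.58-fold. Among oxidases and partners made in epithelia and other tissue, Duox2 was at −0.17 and Nox1 at −0.09 (adjusted p = 0.258 and 0.54). Duox1 passed the threshold (change not given here) but did not remain called in every fit with an array left out. The activators Noxa1 and Noxo1 fell 1.28-fold and 1.26-fold, while Nox4 rose 2.09-fold. In all 7 of 13 oxidase subunit genes rose and 2 fell. Fc receptors, paired receptors and their signalling chains rose in 25 of 26 cases, with a median of 2.37. Lilrb4a, an inhibitory receptor, rose 17.4-fold, Fcgr4 16.4-fold and the inhibitory Cd300lf 9.95-fold. The inhibitory Fcgr2b rose 5.6-fold beside the activating Fcgr3 at 5.5-fold, and the chains Fcer1g and Tyrobp 6.8-fold and 5.9-fold. Siglecf, a marker of eosinophils, was at 0.27 (adjusted p = 0.103). Noxa1 no longer passed with any array but day 1 array 1 left out (adjusted p up to 0.143). Noxo1 lost the call with any 1 of the 4 arrays left out (adjusted p up to 0.154).

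Of 23 complement genes 16 rose and none fell. The receptors for the fragments C3a and C5a, C3ar1 and C5ar1, rose 8.97-fold and 8.54-fold, and Cfb, of the alternative pathway, 5.33-fold. Properdin (Cfp) rose 2.92-fold and the classical protease C1s1 2.32-fold. The membrane regulators Cd55, Cd59a and Cd46 were at 0.33, 0.09 and 0.16 (adjusted p = 0.152, 0.62 and 0.422).

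Genes of macrophage activation rose in 19 of 26 cases and fell in 3 (the number lower was 1 without day 1 array 2, 1 without intact array 1 and 1 without intact array 2). Nos2, the inducible nitric oxide synthase, was at 9.41 and 9.99 on the wound arrays and 6.08 and 6.00 on the intact arrays. No value overlapped (12.6-fold, log2 change 3.66, SE 0.20, adjusted p = 1.15e-04). The co-stimulators Cd80, Cd274 and Cd86 rose 7.04-fold, 6.43-fold and 4.55-fold. Genes known from alternative activation went both ways, with Chil3 5.9-fold and Mrc1 4.21-fold higher and Retnla 2.29-fold lower, from 7.44 and 7.62 to 6.28 and 6.39. Apoe and Gpnmb were lower as well, 1.54-fold and 1.69-fold. Il10 rose 1.95-fold, whereas Il12b was at −0.17 and the efferocytosis receptor Mertk at 0.21 (adjusted p = 0.435 and 0.11). Retnla did not pass with any 1 of the 4 arrays left out (adjusted p up to 0.125). Apoe no longer passed with any array but day 1 array 1 left out (adjusted p up to 0.0988).

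Of 20 genes of lymphoid and NK cells 5 rose (the number higher was 3 without intact array 2). Gzmb, a granzyme of cytotoxic cells, was at 8.91 and 7.40 in wounds and 5.58 and 5.50 in intact skin, 6.13-fold higher, and Il2ra rose 2.48-fold. The T cell receptor chains Cd3g and Cd3e and the T cell gene Cd2 also passed the threshold (changes not given here). Of these, Cd3e and Cd2 did not remain called in every fit with an array left out. The cytokines Il17a, Il17f and Ifng were at −0.22, −0.18 and −0.08 and did not pass (adjusted p = 0.191, 0.216 and 0.71). Mean levels of the lymphoid list were low, at 6.03 and 5.89 in wounds and 5.67 and 5.50 in intact skin. Those of the eosinophil and basophil list were 5.71 and 5.76 in wounds and 5.69 and 5.54 in intact skin. Eosinophil and basophil genes had 1 rise, Ccr3 (1.66-fold), and 1 fall, Epx (1.22-fold), among 11, and the number higher was 0 without day 1 array 1, 0 without day 1 array 2 and 0 without intact array 2, and the number lower was 0 without any 1 of the 4 arrays. The platelet chemokines Ppbp and Pf4 were at 10.31 and 11.35 against 5.92 and 6.17 and at 10.73 and 11.23 against 8.09 and 8.75, 27.6-fold and 5.9-fold higher. Both genes were high on both wound arrays, with Ppbp higher on array 2 than on array 1. The platelet glycoprotein Gp9 was at −0.06, the integrin Itga2b at −0.01 and the red cell enzyme Alas2 at −0.04 (adjusted p = 0.649, 0.931 and 0.871), and the red cell anion carrier Slc4a1 fell 3.39-fold, with Gp5 and Treml1 of platelets 1.45-fold and 1.36-fold lower. Ccr3 and Epx lost the call with any 1 of the 4 arrays left out (adjusted p up to 0.207). Gp5 and Treml1 did not pass with any array but day 1 array 1 left out (adjusted p up to 0.167).

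Proteasomes exist in a constitutive form and in an immunoproteasome with exchanged catalytic subunits, which cuts peptides for MHC class I. The calls fell on the second form. Of 16 genes of the immunoproteasome and class I presentation 13 rose and none fell, whereas of 31 constitutive subunits none rose and 1, Psmc5, fell (1.32-fold). Counts of lower constitutive subunits were 4 under quantile normalization, 2 under cyclic loess and 0 without intact array 2. Psmb8 was at 8.70 and 8.77 in wounds and 7.58 and 7.59 in intact skin, and Psmb10 at 9.14 and 9.15 and 7.90 and 8.02. These catalytic subunits rose 2.22-fold and 2.27-fold without overlap, and Psmb9 rose 1.59-fold. The constitutive partners they replace, Psmb5, Psmb7 and Psmb6, were at log2 changes of 0.01, −0.03 and −0.14 (adjusted p = 0.97, 0.762 and 0.218). The peptide transporter Tap1 rose 2.17-fold and the class I regulator Nlrc5 2.02-fold, while the chaperones Calr and Canx were at 0.13 and 0.18 (adjusted p = 0.256 and 0.112). In class II presentation 11 of 16 genes rose and 1 fell. Many of the rises were not called without day 1 array 2 or without intact array 2. The rises were led by the protease Ctss (7.67-fold) and the dendritic cell lectin Cd209a (2.6-fold), with Cd74 1.88-fold higher. Psmc5 no longer passed with intact array 2 left out (adjusted p = 0.0573). Cd209a lost the call with any array but day 1 array 1 left out (adjusted p up to 0.178). Cd74 did not pass with day 1 array 2 or intact array 2 left out (adjusted p up to 0.0757).

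Coagulation genes rose in 14 of 25 cases and none fell. Plaur, the urokinase receptor, rose 10.1-fold, but its ligand Plau was at 8.59 and 8.53 in wounds against 8.49 and 8.61 in intact skin, a log2 change of 0.01 (adjusted p = 0.937). The tissue-type activator Plat was at −0.13 (adjusted p = 0.347). F10, whose factor cuts prothrombin, rose 6.08-fold, the anticoagulant receptor Thbd 4.44-fold, and F13a1, the fibrin cross-linker made by macrophages, 3.58-fold. The initiator F3 (tissue factor) and its inhibitor Tfpi rose 2.15-fold and 2.68-fold. Genes of angiogenesis rose in 19 of 31 cases (the number higher was 8 without day 1 array 2, 8 without intact array 1 and 12 without intact array 2). Adm, Angptl4, Pgf and Vegfa rose 2.44-fold, 2.39-fold, 2.37-fold and 2.16-fold. Edn1 and Notch1 fell 2.08-fold and 2.04-fold, and the tip cell gene Esm1 was at −0.12 (adjusted p = 0.249). Angptl4 no longer passed with any array but intact array 2 left out (adjusted p up to 0.174). Pgf lost the call with intact array 1 or intact array 2 left out (adjusted p up to 0.0721). Edn1 did not pass with any array but day 1 array 1 left out (adjusted p up to 0.111).

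Genes of heme, iron and other metals changed in both directions, with 15 rises and 5 falls among 22. Slc40a1 encodes ferroportin, the exporter of iron from cells, and stood at 8.54 and 7.79 in day 1 wounds and 10.83 and 10.87 in intact skin. Both wound arrays lay below both intact arrays (6.43-fold lower, log2 change −2.68, SE 0.38, adjusted p = 0.00331). Tfrc, the receptor for iron uptake, fell 1.31-fold. The ferritin chains Ftl1 and Fth1 rose 2.14-fold and 1.94-fold, and Lcn2, which sequesters iron from bacteria, 12.6-fold. For zinc, the importer Slc39a14 rose 3.28-fold and the exporter Slc30a1 fell 3.71-fold, from 10.15 and 10.17 to 8.33 and 8.21. Metallothioneins differed by isoform: Mt1 and Mt2 rose 4.21-fold and 1.62-fold, Mt3 was at 0.23 (adjusted p = 0.0811), and Mt4, the form of differentiated squamous epithelium, fell 7.11-fold, from 11.77 and 11.92 to 9.35 and 8.68. Hmox1, the inducible heme oxygenase, rose 1.65-fold. Tfrc no longer passed with day 1 array 1 or intact array 1 left out (adjusted p up to 0.0901). Hmox1 lost the call with intact array 1 left out (adjusted p = 0.0781).

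Among 28 antioxidant genes 10 rose and 4 fell (the number lower was 2 without day 1 array 2 and 2 without intact array 2). The cystine importer Slc7a11 rose 2.65-fold and Sod2 1.89-fold, yet the subunits of the rate-limiting enzyme of glutathione synthesis fell, Gclc 2.28-fold and Gclm 1.45-fold. The NRF2 targets Txnrd1 and Srxn1 were at −0.25 and −0.22 (adjusted p = 0.0635 and 0.114). Of 28 genes of the unfolded protein and amino acid responses 7 rose, none of them 2-fold, and 2 fell. Many of the rises were not called without day 1 array 2, without intact array 1 or without intact array 2. Hspa5, the main chaperone of that response, was at 0.14 (adjusted p = 0.382). Chac1, which degrades glutathione, fell 5.62-fold from 11.87 and 11.94 to 9.73 and 9.10, with no overlap. Ribosome biogenesis and MYC network genes gave 3 rises and 2 falls among 28, and the number of rises was 6 under cyclic loess and 7 without day 1 array 1. Myc rose 1.61-fold, whereas its relatives Mycn and Mycl fell 2.57-fold and 2.1-fold. Gclm did not pass with any 1 of the 4 arrays left out (adjusted p up to 0.0881). Chac1 no longer passed with any array but day 1 array 1 left out (adjusted p up to 0.087).

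Genes of cell death rose in 16 of 34 cases and fell in 2 (the number higher was 10 without intact array 1 and 10 without intact array 2). The necroptosis pair Mlkl and Ripk3, the pore former and the kinase that activates it, were at 8.04 and 8.09 against 6.22 and 6.57 and at 8.25 and 8.64 against 6.98 and 7.10. Both were higher on both wound arrays (3.18-fold and 2.65-fold). Fas, Casp8, Apaf1 and the BH3 gene Bcl2l11 rose 3.71-fold, 2.2-fold, 2.45-fold and 2.51-fold, and the survival genes Birc3 and Mcl1 3-fold and 2.11-fold. Among p53 targets, which include Fas and Apaf1, Mdm2, Bbc3 and Pmaip1 did not pass, at 0.16, −0.09 and 0.19 (adjusted p = 0.175, 0.416 and 0.152). The targets Ccng1, Eda2r, Aen and Btg2 passed the threshold (changes not given here). Of these, Ccng1 and Aen did not remain called in every fit with an array left out. Plk3 and Plk2 fell 2.08-fold and 1.63-fold.

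In arginine and polyamine metabolism 10 of 15 genes rose and 3 fell (the number lower was 1 without day 1 array 2, 1 without intact array 1 and 1 without intact array 2). Odc1, the rate-limiting enzyme of polyamine synthesis, rose 3.26-fold, and the arginases Arg2 and Arg1 2.35-fold and 1.88-fold beside Nos2 (12.6-fold). The carrier Slc7a2 rose 1.87-fold and its relative Slc7a1 fell 1.34-fold. Prostanoid and leukotriene genes went both ways, with 15 rises and 8 falls among 35 (the number lower was 4 without day 1 array 2, 5 without intact array 1 and 5 without intact array 2). Ptgs2, the inducible cyclooxygenase, was at 10.81 and 11.21 in wounds and 7.57 and 8.01 in intact skin. No values overlapped (9.32-fold, log2 change 3.22, SE 0.20, adjusted p = 1.67e-04). The prostaglandin E synthase Ptges rose 5.5-fold, and Alox5 and its partner Alox5ap, which start leukotriene synthesis in leukocytes, 2.46-fold and 6.84-fold. Alox8, a lipoxygenase of skin, was at 6.64 and 6.80 against 10.51 and 10.45, 13.5-fold lower (log2 change −3.76, SE 0.38, adjusted p = 9.34e-04). Alox12, the phospholipase Pla2g2e and the prostaglandin D synthase Ptgds fell 2.24-fold, 4.82-fold and 2.15-fold. Barrier lipoxygenases went the other way, with Alox12b 2.29-fold and Aloxe3 1.87-fold higher. Arg1 lost the call with intact array 1 or intact array 2 left out (adjusted p up to 0.075). Slc7a1 did not pass with any 1 of the 4 arrays left out (adjusted p up to 0.208). Ptgds no longer passed with day 1 array 1 or day 1 array 2 left out (adjusted p up to 0.0747). Aloxe3 lost the call with intact array 2 left out (adjusted p = 0.0501).

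Purine signalling, by which cells sense nucleotides from damaged neighbours, held 10 rises and 2 falls among 20 genes (the number lower was 1 without day 1 array 1, 0 without intact array 1 and 1 without intact array 2). P2ry13, P2ry6, P2rx4 and P2ry14 rose 4.21-fold, 3.36-fold, 2.72-fold and 2.6-fold, with the nucleotide-degrading Entpd1 3.66-fold higher. P2rx7 was at 0.15 (adjusted p = 0.252), and Nt5e, which makes adenosine, fell 1.37-fold. Genes of fatty acid oxidation and triglyceride turnover gave 10 falls and 5 rises among 31 (the number lower was 3 without intact array 1 and 4 without intact array 2, and the number higher was 3 without day 1 array 1, 3 without day 1 array 2, 2 without intact array 1 and 2 without intact array 2). Scd2 and the mitochondrial regulator Ppargc1a fell 2.17-fold and 1.97-fold, and Plin2, which coats lipid droplets in many cell types, rose 2.28-fold. The tricarboxylic acid cycle gave 3 rises and 3 falls among 23 genes, with a median of 0.05 (the number higher was 1 without day 1 array 2, 1 without intact array 1 and 1 without intact array 2, and the number lower was 1 without any 1 of the 4 arrays). Idh1 fell 1.74-fold. Nt5e did not pass with any array but day 1 array 2 left out (adjusted p up to 0.0779). Ppargc1a no longer passed with intact array 1 or intact array 2 left out (adjusted p up to 0.0667).

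Genes that hold cells to matrix and those that hold cells to each other gave opposite counts. Which cells of the whole skin carried these changes was not tested. Among integrin and basement membrane laminin genes 13 of 19 rose (the number higher was 7 without day 1 array 2 and 7 without intact array 1). Itga5, a chain of the fibronectin receptor, was at 10.11 and 10.46 in wounds and 7.79 and 8.08 in intact skin. Both wound arrays were higher (5.1-fold, log2 change 2.35, SE 0.17, adjusted p = 2.69e-04). Itga6 and Itgb6 rose 2.15-fold and 2.04-fold, Lamb3 1.73-fold, and Lama5 and the integrin activator Fermt1 fell 1.55-fold and 1.55-fold. Junctions between cells went down: of 27 desmosome, tight and gap junction genes none rose and 15 fell, and 9 of these remained with any 1 array left out. The desmosomal cadherins Dsc2 and Dsg2 were at 8.88 and 7.95 against 10.41 and 10.40 and at 7.52 and 6.61 against 8.54 and 8.57. Wound values of both were below all intact values (3.97-fold and 2.81-fold lower). Cldn4 and Ocln, of tight junctions, fell 2.21-fold and 1.85-fold, and the connexin Gja1 1.89-fold. The desmosome core of the interfollicular epidermis did not pass, with Dsp, Jup, Dsg3 and Pkp1 at −0.26, −0.07, 0.22 and −0.05 (adjusted p = 0.0648, 0.533, 0.162 and 0.728). Hair matrix genes fell in the same biopsies, at a list median of −1.07, and their part in the falls of junction genes was not tested. Fermt1 lost the call with any array but day 1 array 1 left out (adjusted p up to 0.174). Dsg2 did not pass with intact array 1 or intact array 2 left out (adjusted p up to 0.0796). Gja1 no longer passed with day 1 array 2 or intact array 2 left out (adjusted p up to 0.0522).

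Keratins changed by type, 6 up and 6 down among 22. Krt6b, a keratin of wound-edge epidermis, was at 12.38 and 12.35 in wounds and 6.28 and 8.47 in intact skin. The 2 wound arrays were nearly equal, while the intact arrays were apart (31.8-fold, log2 change 4.99, SE 0.62, adjusted p = 0.00193). Its close relative Krt6a, which is also made in hair follicles, rose 2.24-fold. Krt17, another wound keratin, was already at 12.49 and 12.58 in intact skin. In wounds it was at 12.35 and 12.23 (log2 change −0.25, adjusted p = 0.147). Krt75, of the follicle's companion layer, fell 7.19-fold, and the simple epithelial keratins Krt18, Krt8 and Krt7 fell 2.19-fold, 1.72-fold and 1.81-fold. Krt5 was at 0.03 (adjusted p = 0.837). Krt75 lost the call with any array but day 1 array 1 left out (adjusted p up to 0.167).

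**Figure D3:**
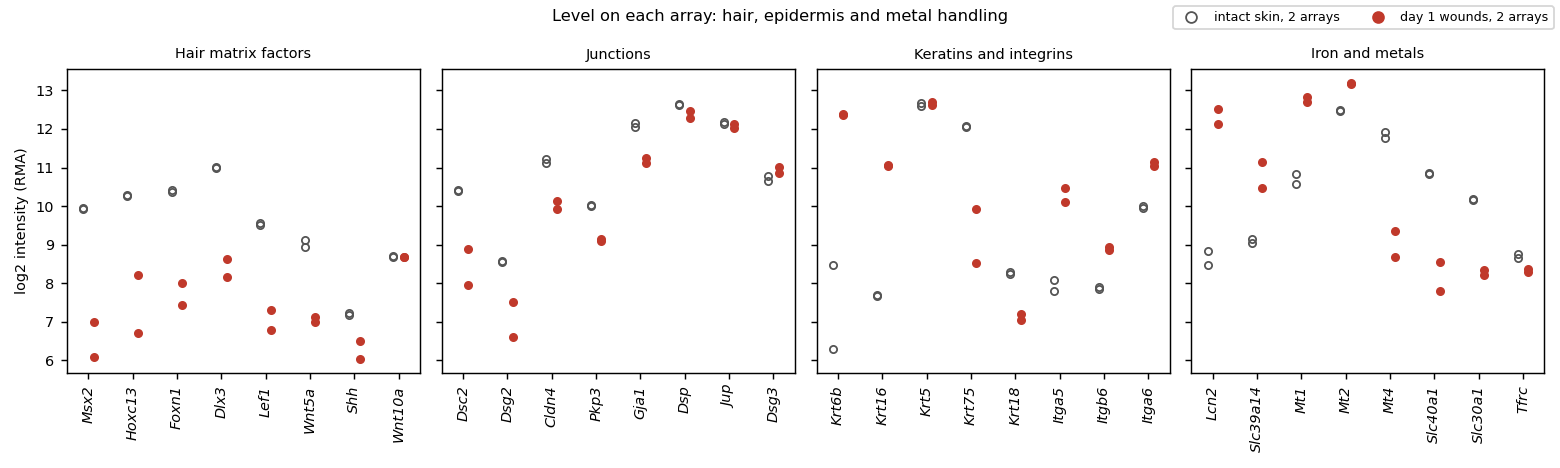
Log2 intensity (vertical axis) on each of the 2 intact arrays (open circles) and the 2 day 1 arrays (filled circles) for hair matrix factors, junction genes, keratins with integrins, and metal handling genes. Msx2, Dsc2, Krt75 and Slc40a1 sit lower in the wounds on both arrays, Krt6b, Itga5 and Mt1 sit higher, and Jup and Krt5 lie together.

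EGF family ligands differed among themselves, 6 up and 4 down among 17 genes of the family. Epgn, Nrg1 and Hbegf rose 3.1-fold, 2.08-fold and 1.66-fold, and the sheddase Adam17, which releases such ligands, 1.75-fold. Tgfa and the receptor inhibitor Lrig1 fell 1.84-fold and 2.27-fold, and Egfr was at −0.19 (adjusted p = 0.144). Of 24 kallikreins and skin protease inhibitors 10 rose. Slpi, an inhibitor of neutrophil elastase, was at 9.01 and 9.68 in wounds and 6.69 and 6.81 in intact skin, 6.04-fold higher, and Klk9 and Klk13 rose 3.28-fold and 1.99-fold. The membrane protease St14 and its substrate Prss8 fell 2.43-fold and 2.48-fold, while Klk5 and its inhibitor Spink5 were at 0.21 and 0.11 (adjusted p = 0.106 and 0.38). Lrig1 did not pass with any array but day 1 array 1 left out (adjusted p up to 0.0633).

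Antimicrobial genes rose in 10 of 21 cases. The inducible defensins Defb14 and Defb3 rose 3.86-fold and 3.18-fold and the peptidoglycan-binding Pglyrp1 5.3-fold, whereas the constitutive Defb6 and Defb1 were at 0.05 and −0.19 (adjusted p = 0.71 and 0.177). S100a7a went against the list, 6.45-fold lower, at 8.17 and 7.19 against 10.37 and 10.37. Its wound arrays lay apart from each other and below the intact arrays. In the barrier lipid list 10 of 28 rose and 4 fell (the number higher was 6 without day 1 array 1, 5 without intact array 1 and 5 without intact array 2, and the number lower was 2 without any 1 of the 4 arrays). Sgms2 and Degs2 rose 2.31-fold and 2.01-fold, and Pnpla1, needed for the acylceramides of the barrier, fell 2.29-fold. Defb3 no longer passed with any array but day 1 array 2 left out (adjusted p up to 0.0828). S100a7a lost the call with any array but day 1 array 1 left out (adjusted p up to 0.0995). Sgms2 did not pass with intact array 1 left out (adjusted p = 0.0543).

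Among 36 regulators and products of the hair matrix none rose and 30 fell, 17 of them at least 2-fold, and 21 remained with any 1 array left out. The list median was −0.87 on day 1 array 1 and −1.22 on day 1 array 2. Hoxc13, a homeobox factor that drives hair keratins, was at 8.21 and 6.70 in wounds and 10.28 and 10.26 in intact skin. Both wound arrays were low, array 2 the lower (7.04-fold lower, log2 change −2.81, SE 0.59, adjusted p = 0.0144). Dlx3 and Lef1, the Wnt effector of the matrix, were 6.17-fold and 5.64-fold lower, Fgf5, which ends hair growth, 6.75-fold, and Wnt5a 3.94-fold. Sonic hedgehog signalling fell with them: Shh 1.91-fold, its receptor Ptch1 1.82-fold and the effectors Gli1 and Gli2 1.87-fold and 2.03-fold. Edar was at −0.16 (adjusted p = 0.462). S100a3, Tchh and Dsg4 of the hair shaft and root sheath had large negative changes (−4.15, −3.94 and −3.90) that did not pass (adjusted p = 0.0765, 0.154 and 0.0673). Hoxc13 no longer passed with any array but day 1 array 1 left out (adjusted p up to 0.0841).

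Bulge and stem cell genes fell in 11 of 25 cases and rose in 4 (the number lower was 5 without day 1 array 2, 5 without intact array 1 and 5 without intact array 2, and the number higher was 2 without day 1 array 1, 2 without day 1 array 2, 0 without intact array 1 and 1 without intact array 2). Lhx2, Tbx1 and Sox9 fell 2.68-fold, 2.63-fold and 2.17-fold, while Krt15 and Cd34 were at −0.27 and −0.13 (adjusted p = 0.157 and 0.225). Lgr5 was at 9.85 and 8.86 against 10.32 and 10.47 and did not pass (−1.04, adjusted p = 0.0595). Of 22 dermal papilla genes 6 fell and 4 rose (the number lower was 3 without intact array 1, and the number higher was 1 without day 1 array 2, 1 without intact array 1 and 2 without intact array 2). Sostdc1, Corin and Bmp6 fell 2.79-fold, 2.11-fold and 1.93-fold, and Vcan and Fgf7, which dermal fibroblasts also make, rose 4.08-fold and 2.12-fold. Melanocyte markers had mean levels of 6.95 and 6.90 in wounds and 8.74 and 7.92 in intact skin, where the arrays were themselves apart. Of the 8 markers 7 fell (the number lower was 3 without day 1 array 1 and 3 without day 1 array 2), and Sox10, the melanocyte factor also found in Schwann cells, was at −0.05 (adjusted p = 0.725). Lhx2 lost the call with intact array 1 or intact array 2 left out (adjusted p up to 0.0547). Tbx1, Sox9, Corin and Fgf7 did not pass with any array but day 1 array 1 left out (adjusted p up to 0.21).

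The 2 day 1 arrays differed most in these structural hair genes. Of the genes at least 2-fold apart between them, 113 were higher on array 1 and 10 on array 2, against 21 such genes between the intact arrays. The 30 genes with the largest gap held 18 keratin-associated protein genes and 4 keratins, and none of the 30 was called. Krtap6-1 was at 11.06 and 4.99 on the day 1 arrays and 12.23 and 12.31 on the intact arrays, and Krtap7-1 at 12.10 and 6.20 and 13.29 and 13.33. Both wound arrays lay below both intact arrays, array 2 far lower than array 1. Over all 44 Krtap genes the median change was −1.84 on array 1 and −5.44 on array 2. Of these genes 14 fell and none rose. On array 1, 43 of them lay below both intact arrays, and on array 2, 44. Many Krtap genes are near-identical, so their probe sets may share signal. What set the 2 wound arrays apart was not tested.

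**Figure D4:**
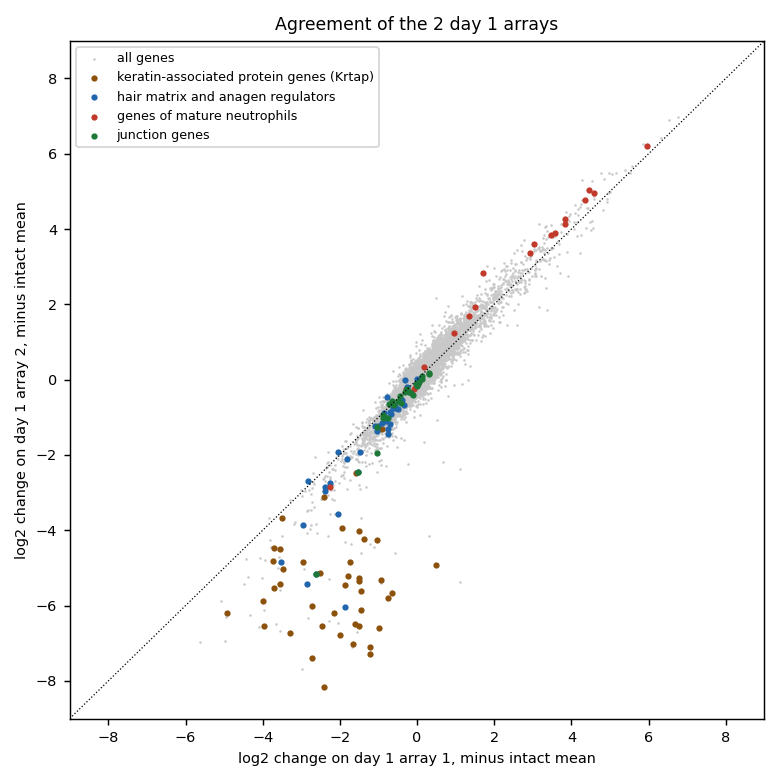
Log2 change of each gene from the intact mean on day 1 array 1 (horizontal axis) and on day 1 array 2 (vertical axis), with all genes in grey and 4 groups in colour. Most neutrophil, junction and hair matrix regulator genes lie near the dotted line of equal change, and nearly all Krtap genes lie below it, with medians of −1.84 and −5.44.

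Falls ranked 11 to 40 held further genes. Crym, a thyroid hormone binding protein, was 28.1-fold lower, the gluconeogenic enzyme Fbp1 20.7-fold, the GABA receptor chain Gabrp 17.6-fold and the potassium channel chain Kcne1 10.3-fold. Ly6g6g and Ly6g6d were 24.3-fold and 11.1-fold lower, the hair keratin Krt82 16.4-fold and the protease Capn8 9.48-fold. Among the rises of the same ranks, Mirt2, a long noncoding RNA, was at 9.82 and 10.56 in wounds against 5.03 and 5.09 in intact skin, 35-fold higher. Ankrd1, a stress gene of muscle and fibroblasts, rose 21.9-fold, Hdc, which makes histamine, 18.1-fold, the platelet and leukocyte protein Plek 20.3-fold, Plac8 20.8-fold and Samsn1 19.2-fold. The Schlafen gene Slfn1 rose 30.9-fold, and 8 of 10 Slfn genes rose. Crym no longer passed with any 1 of the 4 arrays left out (adjusted p up to 0.102). Fbp1 lost the call with any array but day 1 array 1 left out (adjusted p up to 0.0641). Ly6g6d did not pass with day 1 array 2 left out (adjusted p = 0.0528).

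Wnt signalling genes fell in 20 of 44 cases and rose in 2, and 14 of the falls remained with any 1 array left out (the number higher was 0 without day 1 array 2, 1 without intact array 1 and 0 without intact array 2). The negative feedback gene Nkd2 was at 7.30 and 7.42 in wounds and 9.61 and 9.64 in intact skin, 4.81-fold lower (log2 change −2.27, SE 0.15, adjusted p = 2.03e-04). Wound and intact values did not overlap. Wnt11 fell 3.48-fold, and the receptors Fzd5, Fzd1, Fzd3 and Fzd2 fell 2.41-fold, 2.25-fold, 2.23-fold and 2.21-fold. Axin2, the general target of the pathway, was at −0.24 (adjusted p = 0.212), and Wnt16 and the antagonist Sfrp5 rose 1.68-fold and 1.47-fold. Fzd5 no longer passed with intact array 2 left out (adjusted p = 0.0502). Wnt16 lost the call with day 1 array 2 or intact array 2 left out (adjusted p up to 0.0678). Sfrp5 did not pass with any array but day 1 array 1 left out (adjusted p up to 0.0687).

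In TGF-beta, activin and BMP signalling 16 of 36 genes rose and 8 fell (the number higher was 9 without intact array 1). Bambi, a decoy receptor, was at 7.36 and 7.04 in wounds against 9.73 and 9.74 in intact skin, 5.8-fold lower, and the inhibitory Smad6 and Smad7 fell 2.69-fold and 2.18-fold. Both values of Bambi in wounds lay below both in intact skin. Tgfbi, Eng, Tgfbr2 and Inhba rose 2.59-fold, 2.35-fold, 2.08-fold and 2.03-fold, and Tgfb2 was at −0.19 (adjusted p = 0.448). Among 35 FGF, HGF, IGF and PDGF genes 11 rose and 5 fell (the number higher was 7 without day 1 array 2, 6 without intact array 1 and 7 without intact array 2, and the number lower was 2 without day 1 array 2 and 2 without intact array 2). Fgf23, a hormone of phosphate balance made mainly in bone, was at 8.74 and 9.70 against 6.79 and 6.69, 5.58-fold higher, with no overlap. Fgf22, a ligand made in skin, fell 3.05-fold, and Igf1 and Fgf10 were at 0.33 and 0.05 (adjusted p = 0.0578 and 0.762).

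Of 28 provisional matrix and hyaluronan genes 19 rose and 1 fell (the number lower was 0 without any 1 of the 4 arrays). Ptx3, a soluble pattern receptor that binds hyaluronan matrix, was at 9.80 and 10.30 in wounds and 5.70 and 5.34 in intact skin. No values overlapped (23.1-fold, log2 change 4.53, SE 0.29, adjusted p = 1.85e-04). Its partner Tnfaip6 rose 9.99-fold, and the hyaluronan synthases Has3, Has2 and Has1 rose 2.92-fold, 2.14-fold and 1.81-fold. Fn1 was at 0.11 and Sparc at 0.18 (adjusted p = 0.655 and 0.216). Collagen chains gave 4 rises and 4 falls among 25, with a median of 0.07 (the number higher was 1 without day 1 array 2, 1 without intact array 1 and 2 without intact array 2, and the number lower was 2 without day 1 array 2 and 1 without intact array 2). The number higher was 7 under cyclic loess and 7 with a replicate block. Col1a1 was at 11.44 and 12.05 against 11.50 and 11.78 and Col1a2 at 0.07 (adjusted p = 0.735 and 0.762), and Col8a1, a collagen of vessel walls, rose 2.73-fold. The enzymes that modify and cross-link collagen rose in 15 of 22 cases (the number higher was 8 without day 1 array 2, 6 without intact array 1 and 9 without intact array 2). Lox, P4ha1 and Loxl4 rose 2.45-fold, 2.37-fold and 2.29-fold, and Plod2 fell 1.78-fold. Has1 no longer passed with any 1 of the 4 arrays left out (adjusted p up to 0.119). Loxl4 lost the call with intact array 1 or intact array 2 left out (adjusted p up to 0.116).

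Metalloproteinases and their inhibitors rose in 20 of 33 cases and fell in 2. Timp1 was at 11.08 and 11.67 in wounds and 6.61 and 7.81 in intact skin, 17.9-fold higher (log2 change 4.16, SE 0.39, adjusted p = 7.14e-04), and wound and intact values were far apart. Mmp19 and Mmp3 rose 8.22-fold and 7.01-fold, and Mmp1b, of a pair with the near-identical Mmp1a, 3.24-fold. Timp2, Mmp7 and Mmp12, the macrophage elastase, were at 0.05, −0.15 and 0.48 (adjusted p = 0.699, 0.354 and 0.192). Adamts20, needed by melanoblasts, fell 1.72-fold. Mmp1b did not pass with intact array 1 or intact array 2 left out (adjusted p up to 0.0594). Adamts20 no longer passed with any array but day 1 array 1 left out (adjusted p up to 0.0807).

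The array also holds probe sets for miRNA genes, which read the primary transcript or hairpin and not the mature miRNA. Of 272 miRNA genes with a RefSeq entry 5 rose (1.84%) and 17 fell (6.25%). Both shares were below the 14.7% and 14.6% over all genes, and 91.9% of the miRNA genes were not called. Mir142, of blood cells, was at 6.66 and 7.13 in wounds and 5.16 and 5.28 in intact skin (3.19-fold), and Mir155, induced in activated leukocytes, at 7.43 and 7.41 and 6.45 and 6.27 (2.08-fold). Both were higher on both wound arrays. In the miR-181 family 4 of 6 genes fell, Mir181b-1 by 1.56, Mir181a-1 by 1.14, Mir181b-2 by 0.67 and Mir181c by 0.58 on the log2 scale. Mir181a-2 and Mir181d were at −0.45 and −0.08 (adjusted p = 0.0696 and 0.661). Mir181a-1 and Mir181b-1 lie next to each other on chromosome 1. The epithelial Mir200b, Mir203 and Mir31 fell by 0.72, 0.64 and 0.72, and Mir146 was at 0.24 (adjusted p = 0.0958). The mature sequences from RefSeq are shown to set the shared seed of the miR-181 family beside the seeds of the other genes. Bases 2 to 8, the seed, are in capitals.
miR-181a-5p: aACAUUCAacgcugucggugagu
miR-181b-5p: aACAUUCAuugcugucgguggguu
miR-181c-5p: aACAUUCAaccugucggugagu
miR-142a-3p: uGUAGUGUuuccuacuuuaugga
miR-155-5p: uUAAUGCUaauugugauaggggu
miR-200b-3p: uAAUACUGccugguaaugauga
miR-203-3p: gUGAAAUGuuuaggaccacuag
miR-31-5p: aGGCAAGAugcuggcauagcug
The miR-181 sequences carry 1 seed, and each of the other sequences has a seed of its own. Mir203 lost the call with any array but intact array 1 left out (adjusted p up to 0.116). Mir31 did not pass with day 1 array 2 or intact array 1 left out (adjusted p up to 0.0595).

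**Figure D5:**
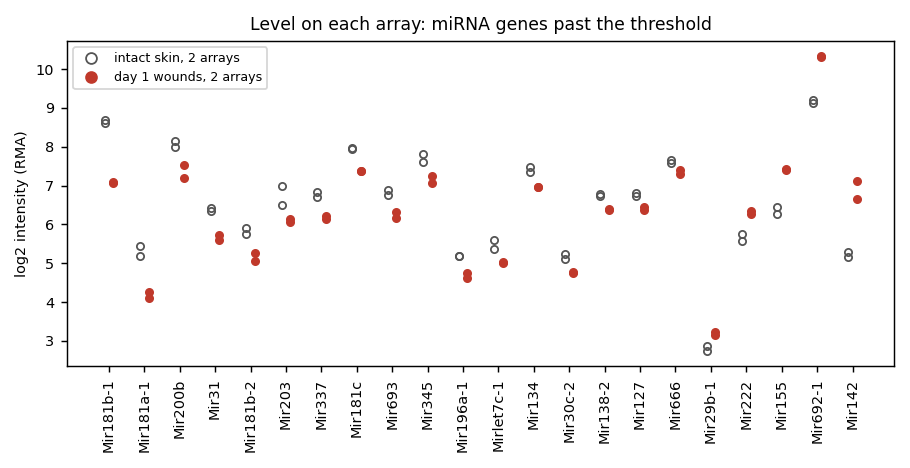
Log2 intensity (vertical axis) of the 22 miRNA genes past the threshold on each of the 2 intact arrays (open circles) and the 2 day 1 arrays (filled circles), ordered by change. Mir181b-1 at the left has the largest fall and Mir142 at the right the largest rise.

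Genes often taken as constant give a scale for these values. Of 14 housekeeping genes 4 rose and none fell, at a median of 0.09 (the number higher was 2 without day 1 array 1, 2 without intact array 1 and 2 without intact array 2). Actb, Rplp0, Hprt and Ppia were at 0.12, 0.02, −0.09 and −0.05 (adjusted p = 0.244, 0.821, 0.439 and 0.704). The glycolytic Pgk1 and the lysosomal Gusb rose 2.07-fold and 2.08-fold. Genes of ribosomal proteins had a median of −0.08 (2 higher and 7 lower of 60). Folds of Ccr1, Cd86, Chil3, Defb14, Fcgr4, Gsdmc, Ifi209, Ifi214, Il10, Il6, Mir142, Mirt2, Mmp1b, Naip5, Nlrp3, Tnfsf18, Tnip3 and Trim30d are approximate. Their mean intact level was below 5.34, the lower quartile of all probe sets on intact array 2, and such signals were not compared with background.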

How the data were processed

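RNA was hybridised to 6 Affymetrix mouse gene arrays. The table deposited by the authors gives log2 intensity for each probe set after RMA, per the submitters' processing notes (version not given in the sources used here). RMA corrects background and brings arrays to a common distribution, so a shift shared by most genes cannot be seen. No detection calls or scan batches were used here, and precision is limited by having 2 arrays a group. Of 35556 probe sets, 21789 name 1 gene in the platform annotation, 1621 several and 12146 none. Where a gene had several probe sets (999 genes), that of the highest average level over the 6 arrays stood for it, which left 19938 genes.

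A mean per group was fitted with limma 3.58.1 in R 4.3.3 (lmFit, eBayes) to all 6 arrays, day 4 wounds adding only to the spread, with Benjamini-Hochberg adjustment over all genes and a threshold of 0.05, two-sided. The fit had 3 residual degrees of freedom. An exact permutation test of 2 against 2 arrays cannot go below p = 0.333. Tested on simulated data, the fit for day 1 wounds against intact skin recovered 84 of 100 genes changed 2-fold and 99 of 100 changed 4-fold among 19938, with 8 unchanged genes called. Simulated noise was independent between genes and arrays, and few genes were changed. In the real data 29.3% of genes passed and some deviations were shared between arrays, so these counts give no error rate for the real fit.

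The members and the 62 gene lists were chosen with earlier results of these data known, so no list carries a test. The lists hold 1456 places, of which 1346 matched a measured gene (8 by another RefSeq name) and 110 did not. Named were, per list, up to 6 members with the largest changes past the threshold and some of those past it against the list. Up to 4 members not past it, and members compared by role, were also named. Other members past the threshold were counted without being named. Genes ranked 11 to 40 in each direction and those with the largest gap between the day 1 arrays were added. Deviations of same-numbered arrays from their group means correlated at 0.014 between day 1 wounds and intact skin, at 0.023 between day 4 wounds and intact skin and at 0.685 between day 1 and day 4 wounds. Since the groups compared did not deviate together, their numbers were not taken as pairs. Day 1 and day 4 arrays did deviate together, yet the fit took them as independent. Its 3 residual degrees of freedom may therefore overstate what is known of the spread. The fit of the 4 compared arrays alone called 2901 genes higher and 2772 lower. Promoters and miRNAs are from RefSeq on GRCm38.p6. Alternatives covered normalization, variance prior, arrays in the fit, a filter on the dimmest 30% of genes, the probe set rule, a replicate block, unmoderated standard errors and each array left out.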

Additional observations from a re-analysis of the deposited data

Results flagged for a closer look

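Probe sets without a gene in the platform annotation entered no comparison of genes. Of 12146 such probe sets, limma at an adjusted p under 0.05 called 164 (1.35%) with a higher and 89 (0.733%) with a lower signal after injury, with the largest log2 changes at 4.70 and −5.88. They were drawn to attention because they lie outside the comparison of genes and differ from the intact control arrays, and no gene could be named for them here.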

How the results depend on the processing

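Values under alternatives are counts by limma at an adjusted p under 0.05. Unmoderated standard errors gave 1243 genes higher and 1117 lower, 203 at least 2-fold lower, and 354 called places in the gene lists in place of 744. Under them the larger count of a list was lower by over 1.5 times in 44 of 62 lists. With each of the 6 arrays left out in turn, the number of higher genes was between 1773 and 2901, and of lower genes between 1376 and 2772. Where a day 4 array is left out, the remaining one adds nothing to the spread. Quantile normalization, cyclic loess, median centring, the other priors, the dim filter, the fit of 4 arrays and the mean of probe sets kept all 4 counts within 1.5 times. With replicate numbers as a block, 2971 genes were higher and 2893 lower, and 330 calls of named genes remained while 2 were lost. This pairing shares only numbers between day 1 wounds and intact skin. No named gene with a call changed sign under any alternative run. With 1 of the 4 compared arrays left out, 62 calls of named genes were lost in at least 1 fit and 270 were kept in all 4, and 138 were lost with unmoderated standard errors, 13 with the robust prior and 8 with cyclic loess. The promoter window was also cut to 100 bases before the start, a part of the first window, so no motif share could rise. The interferon element was then in 4.34% of promoters of genes at least 2-fold higher and 0.647% of those at least 2-fold lower. Over all genes measured it was in 0.907%. For the kB consensus the shares were 5.72%, 4.96% and 3.53%, respectively. No measure of background limits how dim a signal can be read.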
